A study of Homo sapiens with 16 samples.

Results

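The nuclear genes for the subunits of respiratory complexes I to V were followed through 16 tumour transcriptomes. Members were chosen by symbol alone: gene rows whose names begin as NDUF subunits, SDHA to SDHD, UQCR, COX4 to COX8 or ATP5A to ATP5J, without pseudogenes. The rule found 82 rows among 17318 genes in the first deposited table and 83 among 18168 in the second, after dropping 9 pseudogene rows from each. It used no measured value, although earlier results of these data were known. Subunits made up 76 of these rows in each table: 37 of complex I, 4 of complex II, 8 of complex III, 14 of complex IV and 13 of complex V. NDUFA4 and its paralogue NDUFA4L2 were counted with complex IV, where NDUFA4 is a subunit. The other rows were 2 antisense RNAs, 2 readthrough genes and second identifiers of NDUFB8 and UQCR11, and in the second table also of NDUFA7. The rule found no row under the symbols COX4I2, COX6A2, COX7A1, COX7B2, COX8C or UQCRHL in either table, so these were not analysed here.

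The tumours were brain xenografts in nude mice of luciferase-bearing U87 cells, a long-established line from a human glioblastoma. Mice received exosomes, small vesicles released by cells and here labelled as MSC-derived, that held a siRNA against human MYC or a scramble siRNA. In the first pair, 3 mice received siRNA 1 against MYC (Myc1) and 4 its scramble (Scr1). In the second pair, 5 mice received siRNA 2 (Myc2) and 4 its scramble (Scr2), with 1 mouse per library by title and all tumours taken at euthanasia. Myc1 and Scr1 mice were injected behind the eye every other day from day 28, each time with 1e9 exosomes (100 µl). Every sample carried the genotype label WT. The labels state neither the dosing of Myc2 and Scr2 mice nor the day of euthanasia in any group. All tumours descend from 1 cell line. The host brain was mouse, while every row of the tables is a human gene.

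The respiratory chain sits in the inner mitochondrial membrane. Complexes I and II pass electrons from NADH and succinate to ubiquinone, complex III passes them on to cytochrome c, and complex IV hands them to oxygen. The proton gradient built on the way drives ATP synthase, complex V. Most subunits are encoded in the nucleus and are built together with a small core encoded by mitochondrial DNA, and MYC is known as an activator of many nuclear genes for mitochondria.

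MYC, the siRNA target, was examined first. In log2 CPM, a count per gene relative to the library's total and the unit of every level given here, MYC was 5.25, 4.73 and 3.84 in Myc1 and 4.41, 4.92, 5.66 and 6.76 in Scr1. The means were 4.61 ± 0.72 (SD, n = 3) and 5.44 ± 1.02 (SD, n = 4), the groups overlapped, and the exact two-sided permutation p was 0.314. In the second pair MYC was 5.79, 5.85, 5.56, 6.17 and 5.40 in Myc2 and 5.33, 5.14, 5.56 and 4.70 in Scr2. The libraries labelled Myc2 thus held more MYC, by 0.57 (exact two-sided permutation p = 0.0397, n = 5 and 4), although the adjusted p across all genes in limma was 0.37. The direction goes against the label, so Myc2 and Scr2 name libraries as labelled.

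Depth could not be read directly from the tables, which are quantile-normalised. The share of genes at a library's lowest value, a sign of low depth, was 8.81% in Scr1 replicate 3 and 5.13% in Scr2 replicate 4, against 0.78% to 2.58% in the others. All 7 U87 markers were tested in each pair, and their mean log2 CPM lay between 7.98 and 9.74, lowest in Scr2 replicate 4. Their differences were above 0 for 5 of 7 with siRNA 1 (median 0.058) and for 7 of 7 with siRNA 2 (median 0.41), which in the second pair is about the size of the subunit median given below and opposite in sign. They summed to 9850 to 12000 CPM in Myc2 and 5760 to 12500 CPM in Scr2. Oligodendrocyte markers summed to 0.219 to 1.27 CPM, neuron markers to 13.1 to 26.8 CPM and endothelial markers to 1.07 to 10.9 CPM, and no erythroid marker had a row. Astrocyte markers summed to 143 to 841 CPM, microglia and macrophage markers to 163 to 403 CPM and striated muscle markers to 3.28 to 106 CPM. These sums rested mostly on GJA1 and SLC1A3, on CD68 and on TNNT3. The astrocyte marker GFAP lay between 0.34 and 1.64 log2 CPM. PTPRC, of the microglia and macrophage list, lay between -5.16 and 0.14 in the second pair. The muscle marker ACTA1 reached at most -0.81. Of the astrocyte markers 3 of the 4 tested were above 0 in each pair (medians 0.49 and 0.30). The grafted cells were U87 and the host was mouse. Whether U87 or mouse RNA gave these marker values, and their part in the results below, was not tested. In bulk tumour fewer cells of a type and less RNA per cell cannot be told apart.

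No nuclear subunit passed the adjusted threshold of 0.05 in either pair. With siRNA 1, 62 of the 75 subunits tested had a log2 difference above 0, against 49.5% of all genes, and their median difference was 0.20 against -0.0028 for all genes. With siRNA 2, 72 of 75 were below 0, against 51.8% of all genes, with a median of -0.42 against -0.018. The subunits thus lay on opposite sides of 0 in the 2 pairs. COX6B2, the testis isoform of a complex IV subunit, was the 1 subunit below the filter of 1 CPM. The plot of each subunit's difference shows both distributions.

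**Figure D1:**
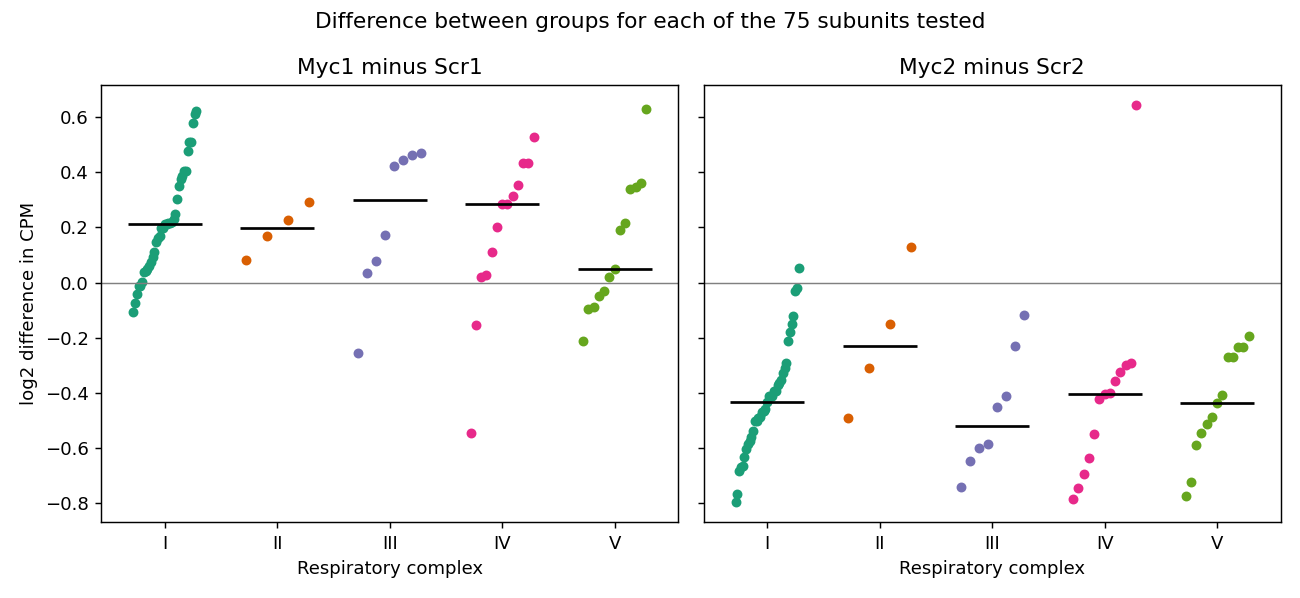
Log2 difference in CPM for each of the 75 subunits tested (points), by complex, for Myc1 minus Scr1 (left) and Myc2 minus Scr2 (right), with black lines at the median of each complex. In the left panel 62 points lie above 0, and in the right panel 72 lie below 0.

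Limma's test across all genes called 0 of 13933 genes (0.0%) with siRNA 1 and 0 of 14208 (0.0%) with siRNA 2. At an unadjusted p under 0.05, 1 subunit was higher with siRNA 1 (1.96% of all genes were) and 0 were lower (1.52%). Without Scr1 replicate 3 the higher subunits numbered 10 (3.42% of all genes) and the median difference was 0.301. With siRNA 2, 0 subunits were higher (7.0% of all genes) and 12 were lower (6.36%). The smallest adjusted p of any subunit was 0.996 with siRNA 1 and 0.37 with siRNA 2. With siRNA 1 the groups did not overlap for 2 subunits that were higher (1.94% of all genes) and 2 that were lower (2.27%), 4 in all (4.21%). With siRNA 2 this held for 0 higher (1.4%) and 1 lower (1.61%), 1 in all (3.01%).

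Single libraries set much of both medians. In the first pair, Scr1 replicate 4 was the lowest library for 50 of 75 subunits, although only 21.7% of all genes were lowest there, and Myc1 replicate 3 was the highest for 42 (15.9% of all genes). Without Scr1 replicate 4 the median difference was 0.085 and 55 subunits lay above 0. In the second pair, Scr2 replicate 4 was the highest for 67 of 75 subunits (27.1% of all genes), and Scr2 replicate 1 was also high. Without both of those scramble libraries the median was 0.020 in place of -0.42, and 41 subunits lay above 0. Without Scr2 replicate 4 alone it was -0.22. The libraries left out here were those high or low in these same values, so the medians move toward 0 by construction. The heat map shows the same libraries as red or blue columns that run through all 5 complexes.

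**Figure D2:**
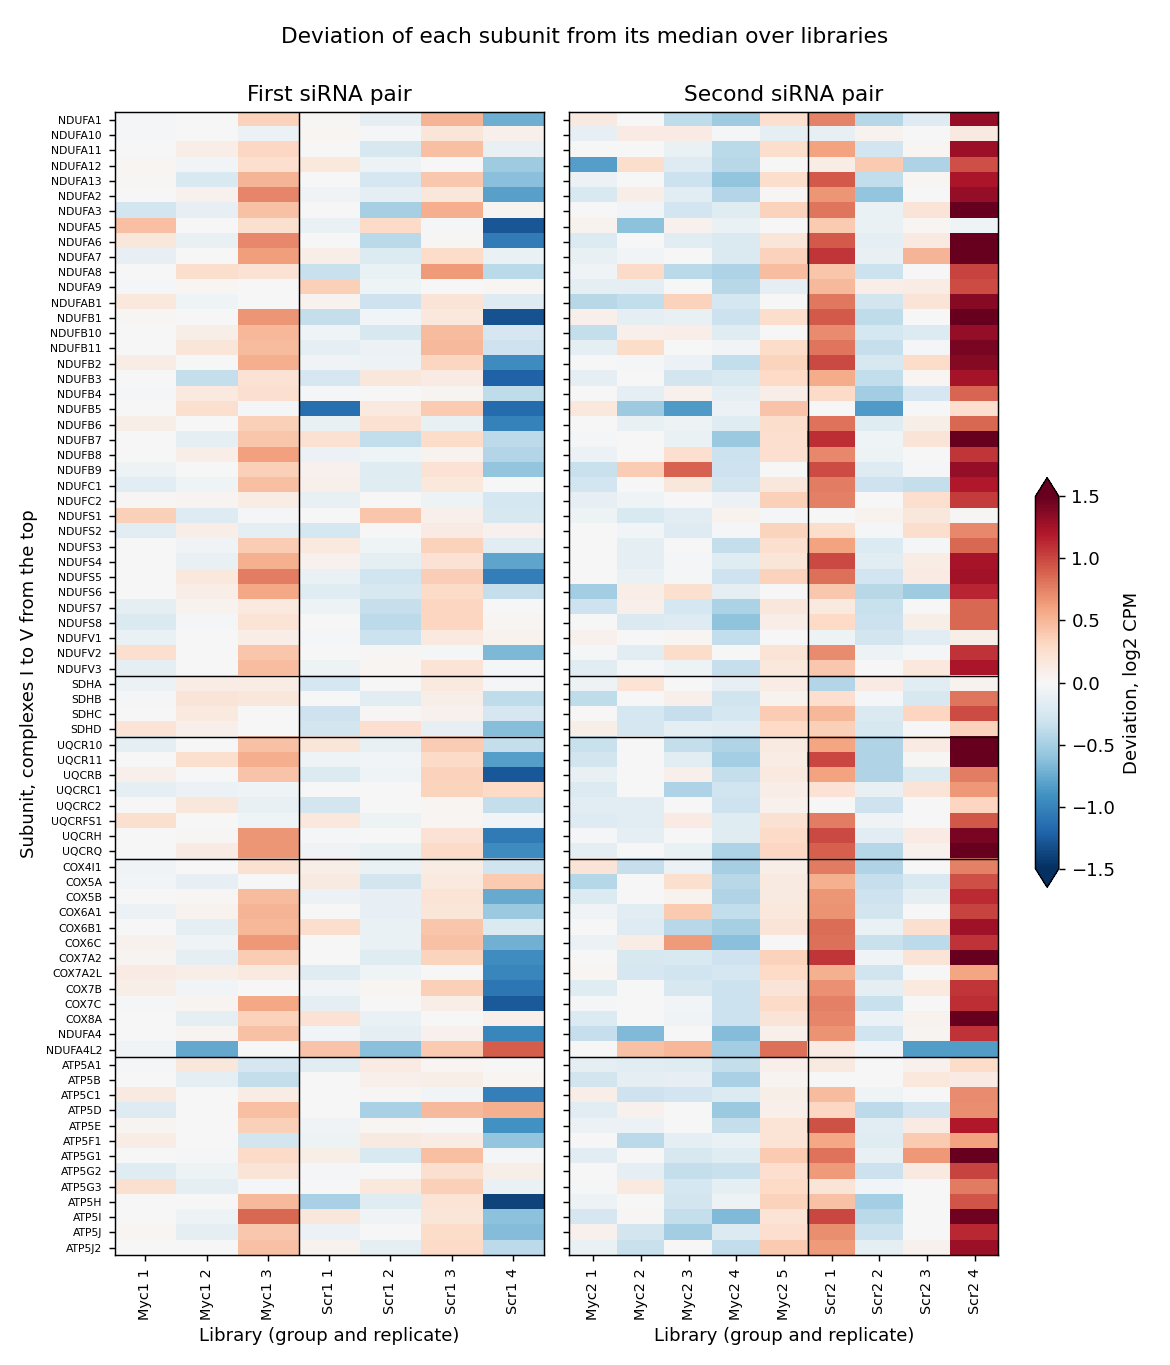
Deviation of each of 75 subunits (rows, grouped by complex) from its median over the libraries of its table, in log2 CPM, with 1 column per library and a black line between MYC siRNA and scramble libraries. Scr1 replicate 4 is the lowest library for 50 rows and Scr2 replicate 4 the highest for 67.

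Promoter sequence was looked at for 62 of the 76 subunits that matched a RefSeq entry (GRCh38.p14, 250 bases before to 50 after the start, first window listed per gene). Letters of the motif of NRF1, a known activator of respiratory genes, written as GCGCA, any base and GCGC and searched on both strands, occurred in 21.0% of member windows, 6.3% of 27305 windows of all genes and 12.3% of 9856 windows of genes tested in both pairs. The ETS letters CCGGAAG, bound by GABP, occurred in 27.4%, 10.7% and 19.6%, and the YY1 letters AAGATGG in 21.0%, 6.1% and 7.7%. The E-box CACGTG, the form bound by MYC, occurred in 8.1% of member windows, 7.4% of all windows and 10.3% of windows of tested genes. The cAMP response element TGACGTCA was in 8.1%, 2.0% and 3.3%. A match of letters describes the window and is not a measured site. The 250 bases before the start are shown for 3 members that recur below: SDHA, which was not high in the scramble libraries where most subunits were, NDUFA9, whose groups did not overlap with siRNA 2, and UQCRC1, whose groups did not overlap with siRNA 1. Capitals mark NRF1 letters, and SDHA holds 4 such matches, beginning 166, 117, 68 and 19 bases before the start, while the other windows hold 1 each. In this the 3 are not typical, as 13 of 62 member windows hold NRF1 letters. The window of COX7A2L, whose groups also did not overlap with siRNA 1, holds none. NDUFC2 and ATP5B, likewise without overlap in that pair, were not among the 62. With the 50 bases after the start included, NDUFA9 and UQCRC1 hold 1 YY1 match each, not within the bases shown.
SDHA, chr5:218070-218319, plus strand: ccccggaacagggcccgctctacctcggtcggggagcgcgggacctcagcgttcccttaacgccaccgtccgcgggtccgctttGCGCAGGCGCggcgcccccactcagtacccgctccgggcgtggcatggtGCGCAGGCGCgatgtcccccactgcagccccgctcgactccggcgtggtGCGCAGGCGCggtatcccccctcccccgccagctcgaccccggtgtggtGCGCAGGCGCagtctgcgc
NDUFA9, chr12:4648864-4649113, plus strand: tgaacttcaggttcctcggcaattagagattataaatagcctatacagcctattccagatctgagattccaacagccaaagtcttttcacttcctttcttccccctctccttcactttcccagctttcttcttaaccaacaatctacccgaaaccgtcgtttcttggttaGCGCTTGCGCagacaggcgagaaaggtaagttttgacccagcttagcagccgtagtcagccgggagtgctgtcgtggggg
UQCRC1, chr3:48609647-48609896, minus strand: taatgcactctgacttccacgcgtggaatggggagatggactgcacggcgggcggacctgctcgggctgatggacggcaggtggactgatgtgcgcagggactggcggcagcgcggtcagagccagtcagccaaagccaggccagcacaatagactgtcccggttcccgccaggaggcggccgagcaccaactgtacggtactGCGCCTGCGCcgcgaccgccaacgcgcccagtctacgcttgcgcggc

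Complex I, the largest complex, had 32 of 37 subunits above 0 with siRNA 1 (median 0.21) and 36 of 37 below 0 with siRNA 2 (median -0.43). NDUFA6, an accessory subunit that binds the mitochondrial acyl carrier protein, was 6.45, 6.17 and 7.001 in Myc1 and 6.28, 5.88, 6.29 and 5.24 in Scr1. Its difference was 0.62 ± 0.29 (SE, limma, unadjusted p = 0.0479, adjusted p = 0.996). Scr1 replicate 4 was the lowest of its values and Myc1 replicate 3 the highest, and the groups overlapped. With siRNA 2 NDUFA6 was 5.39, 5.59, 5.42, 5.38 and 5.77 in Myc2 and 6.51, 5.45, 5.72 and 7.09 in Scr2, a difference of -0.68 ± 0.29 (SE, limma, adjusted p = 0.37). Its antisense RNA NDUFA6-AS1 has a row of its own, and whether strand was used in counting is not given in the sources used here.

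NDUFA9, an accessory subunit near the quinone-binding region, had the smallest p of any complex I member with siRNA 2. It was 6.36, 6.37, 6.50, 6.09 and 6.36 in Myc2 and 6.99, 6.60, 6.61 and 7.48 in Scr2. Every Myc2 library was below every Scr2 library, and the difference was -0.59 ± 0.20 (SE, limma, unadjusted p = 0.0120, adjusted p = 0.37). With siRNA 1 the NDUFA9 difference was -0.075 ± 0.20 (SE). NDUFA7, another accessory subunit, had differences of 0.15 ± 0.23 (SE) and -0.77 ± 0.30 (SE) in the first and second pair, and NDUFS5, an accessory subunit of the membrane arm, 0.58 ± 0.30 (SE) and -0.50 ± 0.28 (SE). In both tables the subunit with the smallest spread over libraries was NDUFA10, an accessory subunit with a kinase-like fold, with SDs of 0.088 and 0.12. NDUFC2 did not overlap between the groups of the first pair (6.83, 6.85 and 6.92 in Myc1, 6.70, 6.81, 6.73 and 6.55 in Scr1) and was named after its values were seen.

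Complex II, succinate dehydrogenase, is the only complex encoded wholly in the nucleus and is also an enzyme of the tricarboxylic acid cycle. All 4 subunits were above 0 with siRNA 1 (median 0.20), and 3 of 4 were below 0 with siRNA 2 (median -0.23). SDHA, the flavoprotein that oxidises succinate, was 7.18, 7.46, 7.26, 7.14 and 7.37 in Myc2 and 6.82, 7.38, 7.10 and 7.31 in Scr2, so that Scr2 replicate 1 was its lowest library and Scr2 replicate 4 was within the range of Myc2. Its difference was 0.13 ± 0.16 (SE) with siRNA 2 and 0.082 ± 0.20 (SE) with siRNA 1. SDHB, the iron-sulfur subunit, had differences of 0.23 ± 0.20 (SE) and -0.31 ± 0.22 (SE) in the first and second pair. The membrane anchors SDHC and SDHD gave 0.17 ± 0.21 (SE) and 0.29 ± 0.24 (SE) with siRNA 1, and -0.49 ± 0.24 (SE) and -0.15 ± 0.18 (SE) with siRNA 2. None of these 8 differences passed the adjusted threshold.

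Complex III had 7 of 8 subunits above 0 with siRNA 1 (median 0.30) and 8 of 8 below 0 with siRNA 2 (median -0.52). The exception with siRNA 1 was UQCRC1, a core subunit, at 7.92, 7.95 and 7.98 in Myc1 and 8.05, 8.05, 8.38 and 8.35 in Scr1. All Myc1 values lay below all Scr1 values, and the difference was -0.26 ± 0.19 (SE, limma, unadjusted p = 0.200). Unlike most subunits it was not low in Scr1 replicate 4. With siRNA 2 UQCRC1 differed by -0.41 ± 0.19 (SE, limma, adjusted p = 0.37).

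The small subunit UQCR11 had the largest spread of any subunit in the second table, with an SD of 0.73 over 9 libraries. It was 6.90, 7.18, 7.02, 6.67 and 7.29 in Myc2 and 8.18, 6.73, 7.20 and 8.90 in Scr2, where only replicates 1 and 4 were above the Myc2 range. Its differences were 0.42 ± 0.26 (SE) with siRNA 1 and -0.74 ± 0.37 (SE) with siRNA 2. UQCRQ, a small subunit next to cytochrome b, gave 0.46 ± 0.28 (SE) and -0.59 ± 0.34 (SE), and UQCRH, the hinge protein beside cytochrome c1, 0.44 ± 0.30 (SE) and -0.60 ± 0.29 (SE). A second identifier under the symbol UQCR11 differed by -0.46 ± 0.22 (SE) and -0.34 ± 0.22 (SE), and how reads were shared between the rows is not given in the sources used here.

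Complex IV had 11 of 13 tested subunits above 0 with siRNA 1 (median 0.28) and 12 of 13 below 0 with siRNA 2 (median -0.40). COX7A2L, which takes part in joining complexes III and IV into supercomplexes, was 6.58, 6.55 and 6.60 in Myc1 and 6.27, 6.38, 6.45 and 5.47 in Scr1. Every Myc1 value was above every Scr1 value, and the difference was 0.43 ± 0.25 (SE, limma, unadjusted p = 0.102). With siRNA 2 it was -0.30 ± 0.22 (SE). Its relative COX7A2 gave 0.28 ± 0.28 (SE) and -0.78 ± 0.31 (SE).

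COX6B1, which lies on the outer face of the complex, had the smallest p of complex IV with siRNA 2. It was 7.40, 7.21, 6.98, 6.91 and 7.59 in Myc2 and 8.24, 7.30, 7.64 and 8.68 in Scr2, a difference of -0.74 ± 0.27 (SE, limma, unadjusted p = 0.0182, adjusted p = 0.37). Scr2 replicate 2 lay within the Myc2 range. With siRNA 1 the COX6B1 difference was 0.029 ± 0.23 (SE). COX7C, another small subunit, had the smallest siRNA 1 p after COX7A2L, at 0.53 ± 0.31 (SE), and was 6.74 in Scr1 replicate 4 against 7.86 to 8.09 in the other Scr1 libraries. Its siRNA 2 difference was -0.40 ± 0.28 (SE).

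Among the other isoforms fixed for description, COX4I1, the common form of subunit 4, gave 0.11 ± 0.19 (SE) with siRNA 1 and -0.40 ± 0.27 (SE) with siRNA 2. COX6A1, COX7B and COX8A gave 0.29 ± 0.23 (SE), 0.20 ± 0.29 (SE) and 0.022 ± 0.20 (SE) with siRNA 1. The same 3 genes gave -0.36 ± 0.27 (SE), -0.55 ± 0.24 (SE) and -0.63 ± 0.30 (SE) with siRNA 2. COX6B2 was between -2.54 and -0.65 log2 CPM in the first pair and between -1.11 and 0.24 in the second.

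NDUFA4 and NDUFA4L2 had differences of opposite sign in both pairs. NDUFA4 was 7.42, 7.11, 7.76, 7.11 and 7.84 in Myc2 and 8.44, 7.47, 7.80 and 8.85 in Scr2, a difference of -0.69 ± 0.28 (SE), after 0.43 ± 0.26 (SE) with siRNA 1. NDUFA4L2, a paralogue known to be induced by hypoxia, was 0.58, 1.02, 1.08, 0.053 and 1.40 in Myc2 and 0.71, 0.54, -0.26 and -0.26 in Scr2. That is a difference of 0.64 ± 0.39 (SE), after -0.55 ± 0.48 (SE) with siRNA 1, with overlapping groups in both pairs. NDUFA4L2 lay near 1 CPM, where few reads stand behind a value. Neither gene passed the adjusted threshold in either pair.

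Complex V had 8 of 13 subunits above 0 with siRNA 1 (median 0.051) and 13 of 13 below 0 with siRNA 2 (median -0.44). ATP5B, the catalytic beta subunit, was 9.28, 9.15 and 8.93 in Myc1 and 9.28, 9.36, 9.37 and 9.32 in Scr1, with a difference of -0.21 ± 0.18 (SE). The groups did not overlap, although the highest Myc1 and the lowest Scr1 library are equal to 2 decimals. With siRNA 2 ATP5B differed by -0.27 ± 0.16 (SE).

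ATP5E, the epsilon subunit of the central stalk, was 9.34, 9.29 and 9.65 in Myc1 and 9.24, 9.33, 9.30 and 8.39 in Scr1, so that Scr1 replicate 4 stood below the rest. Its differences were 0.36 ± 0.24 (SE) with siRNA 1 and -0.59 ± 0.27 (SE) with siRNA 2. ATP5H, a subunit of the peripheral stalk, gave 0.63 ± 0.32 (SE) and -0.24 ± 0.26 (SE), and ATP5F1, another stalk subunit, 0.051 ± 0.22 (SE) and -0.44 ± 0.20 (SE). ATP5G1, ATP5G2 and ATP5G3 encode the same mature c subunit of the membrane ring. Of these, ATP5G1 was 5.67, 5.84, 5.60, 5.66 and 6.23 in Myc2 and 6.66, 5.73, 6.49 and 7.41 in Scr2, a difference of -0.77 ± 0.29 (SE, limma, adjusted p = 0.37) with overlap at Scr2 replicate 2. ATP5G2 and ATP5G3 gave -0.49 ± 0.26 (SE) and -0.23 ± 0.20 (SE) with siRNA 2, and with siRNA 1 the 3 genes gave 0.020 ± 0.22 (SE), -0.094 ± 0.19 (SE) and -0.087 ± 0.21 (SE).

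**Figure D3:**
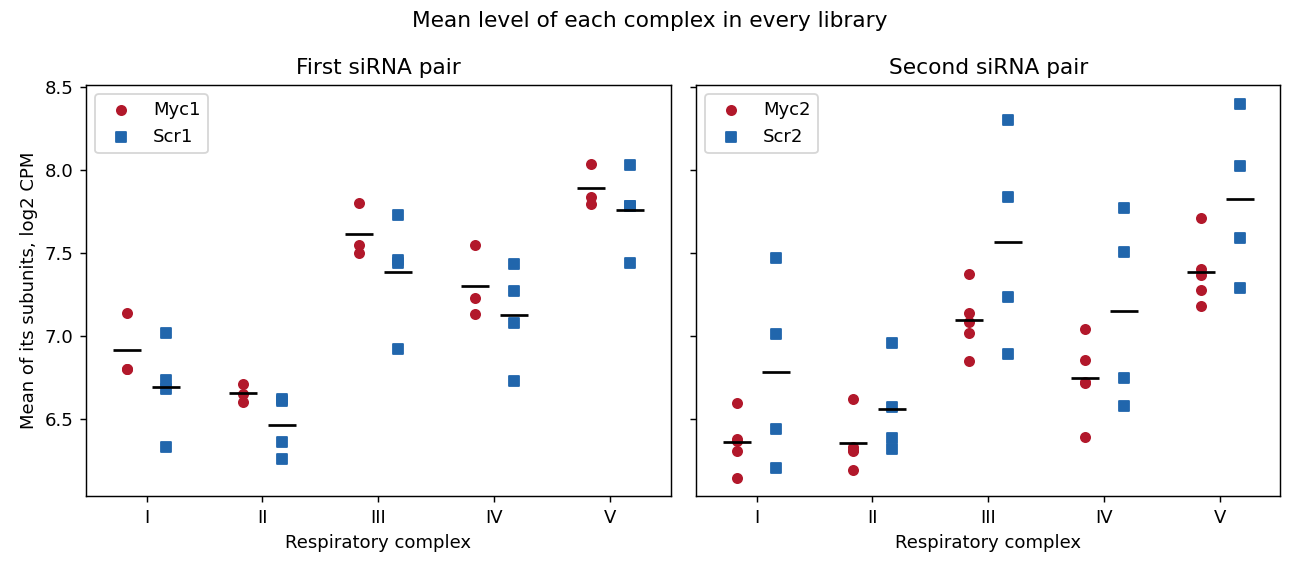
Mean log2 CPM of the subunits of each complex in every library (points), for the first siRNA pair (left) and the second (right), with black lines at group means. The mean of complex III runs from 6.90 to 8.30 over the 4 Scr2 libraries and from 6.85 to 7.37 over the 5 Myc2 libraries.

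Averaged over all 75 subunits, libraries were 7.12, 7.11 and 7.41 in Myc1 and 7.07, 7.02, 7.32 and 6.65 in Scr1. They were 6.65, 6.69, 6.69, 6.45 and 6.95 in Myc2 and 7.34, 6.54, 6.78 and 7.75 in Scr2. Scr2 replicates 2 and 3 lay within the Myc2 range, and Scr2 replicates 1 and 4 above it. The plot of complex means shows the same for complexes I, III, IV and V, whereas for complex II Scr2 replicate 1, at 6.576, lay within the Myc2 range of 6.197 to 6.622. The order of the Scr2 libraries was the same in all 5 complexes.

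The pairs differ in siRNA, scramble and deposited table, and the parts of these cannot be told apart here. The difference between the 2 effects, meaning the 2 group differences as labelled, was tested in a joint fit over the 4 groups. It was above 0 for 71 of 75 subunits (51.3% of all genes), with a median of 0.665 against 0.018 for all genes, and limma called 0 of 14891 genes (0.0%). At an unadjusted p under 0.05, 21 subunits were higher (4.16% of all genes) and 0 were lower (4.58%), with a smallest adjusted p of 0.532. NDUFA6 had the smallest p, with a difference of effects of 1.30 ± 0.45 (SE), and NDUFA4 and ATP5E followed at 1.12 ± 0.41 (SE) and 0.95 ± 0.39 (SE). Without Scr2 replicates 1 and 4, which were high in these same subunits, the median of the 75 subunits was 0.195. Of these subunits 0 then had an unadjusted p under 0.05 in limma. The share of all genes in that smaller fit is not given here, so this 0 does not describe the subunits alone.

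Most subunits are small proteins, and coding length moved with part of these patterns. Coding sequences ran from 156 bases for ATP5E to 2184 bases for NDUFS1, which carries iron-sulfur clusters of complex I, and 57 of the 75 tested were under 600 bases. In Scr2 replicate 4 the median deviation from each gene's median was 1.07 for subunits, 0.66 for 1488 other genes with coding sequences under 600 bases and -0.035 for 10561 longer ones. In Scr2 replicate 1 these were 0.66, 0.48 and -0.006. In Scr1 replicate 4 they were -0.40, -0.26 and 0, and in Myc1 replicate 3 they were 0.36, 0.19 and -0.003. Other short genes thus deviated in the same libraries and in the same direction as the subunits, as the plot of median deviations shows. The 18 long subunits were at 0.68 and 0.23 in Scr2 replicates 4 and 1, unlike other long genes. In Scr1 replicate 4 and Myc1 replicate 3 the long subunits were at -0.006 and -0.01. Short subunits were at 1.205 in Scr2 replicate 4, above other short genes.

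**Figure D4:**
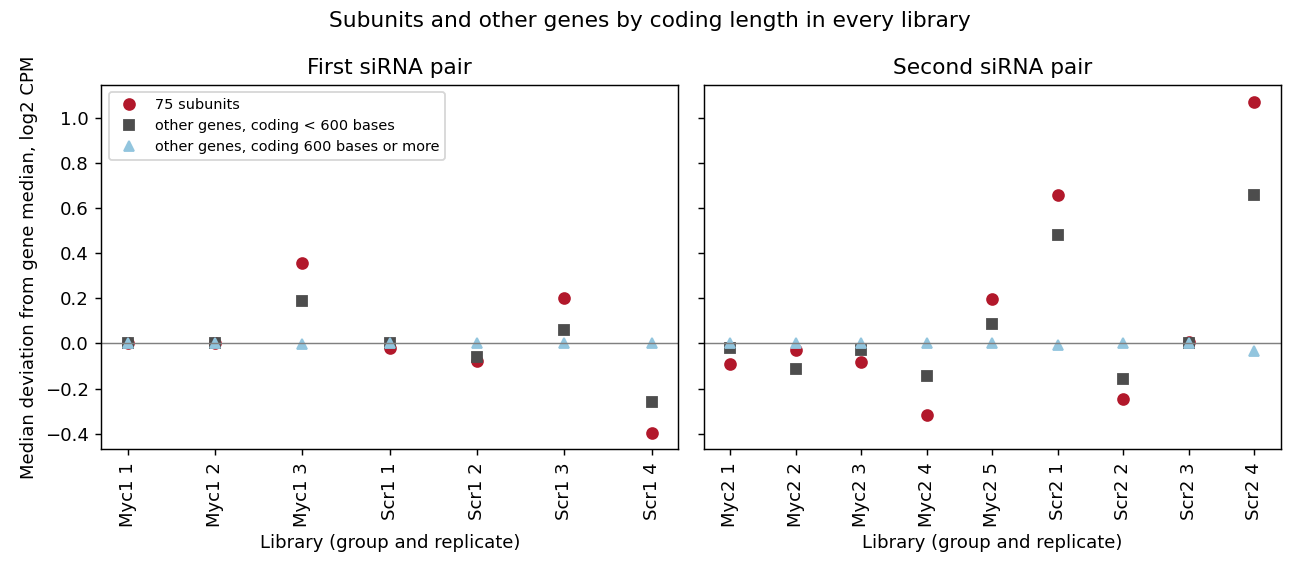
Median deviation from each gene's own median over libraries, in log2 CPM, for 75 subunits (circles), other genes with coding sequences under 600 bases (squares) and other genes with longer ones (triangles), in every library. Circles and squares leave 0 together in Myc1 replicate 3, Scr1 replicate 4 and Scr2 replicates 1 and 4, while triangles stay within 0.035 of 0.

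The group differences followed the same order. With siRNA 1 the median was 0.22 for the 57 short subunits and 0.038 for the 18 long ones, against 0.17 for 1474 other short genes and -0.030 for 10431 other long genes. With siRNA 2 it was -0.488 for short and -0.319 for long subunits, against -0.315 and 0.019 for other genes. Split instead at 1000 bases of annotated transcript, other short genes had medians of 0.20 and -0.48 in the first and second pair, and short subunits 0.21 and -0.49. The 34 tested subunits with longer transcripts had medians of 0.17 and -0.33, against -0.016 and -0.00057 for other genes with longer transcripts. The 2 lengths can differ widely, as for ATP5E, with 156 coding and 1878 annotated transcript bases.

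Taking the fitted trend of coding length and GC content off each library before the test gave subunit medians of 0.060 with siRNA 1, -0.22 with siRNA 2 and 0.26 for the difference. With transcript length and its GC content in their place the medians were 0.0445, -0.0917 and 0.168. The 2 versions left 44 of 75 subunits above 0 with siRNA 1 in each case, and 13 and 27 of 75 above 0 with siRNA 2. Both were added after the data were seen, the transcript version first. The trends are fitted on all genes, subunits included, and what in the tumours or the libraries makes length and level move together was not tested.

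Across the 75 subunits, the deviation in Scr2 replicate 4 had a Spearman rho of -0.62 with coding length, and in Scr1 replicate 4 rho was 0.40 with coding length and 0.54 with GC content. Over all genes with a coding length rho was -0.49, 0.28 and 0.55. These values describe genes of 1 library each, which share its depth and base composition. Some members with long coding sequences lay near 0 in the second pair, although 16 of the 18 with 600 bases or more were below 0 (median -0.319). NDUFV1, which oxidises NADH and has 1395 coding bases, differed by 0.053 ± 0.15 (SE). NDUFS1 differed by -0.15 ± 0.13 (SE), and NDUFA10, with 1068 coding bases, by -0.021 ± 0.14 (SE). NDUFA9, with 1134, and UQCRC1, with 1443, were not near 0, at -0.59 ± 0.20 (SE) and -0.41 ± 0.19 (SE). NDUFA5, a short subunit with 351 coding bases, differed by only -0.18 ± 0.19 (SE). NDUFV1, NDUFS1 and NDUFA5 were named after their values were seen.

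Subunits encoded by mitochondrial DNA did not follow the nuclear ones in the second pair, while with siRNA 1 most of both lay above 0. All 13 were tested, and 11 were above 0 with siRNA 1 (median 0.032) and 11 with siRNA 2 (median 0.27). Their mean was 10.89, 10.97, 11.16, 10.95 and 10.998 in Myc2 and 9.94, 10.82, 11.13 and 10.71 in Scr2, lowest in the 2 Scr2 libraries where the nuclear subunits were highest. In the first pair it was 11.27, 11.29 and 10.94 in Myc1 and 11.08, 11.13, 11.01 and 11.11 in Scr1, lowest in Myc1 replicate 3, where most nuclear subunits were highest. MT-ND3, a membrane subunit of complex I, had a difference of 0.63 ± 0.19 (SE) with siRNA 1, and MT-ND4L, another, 0.95 ± 0.42 (SE) with siRNA 2. Neither passed the adjusted threshold. Quantile normalisation gives every library the same set of values, so the most abundant genes share a fixed range.

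**Figure D5:**
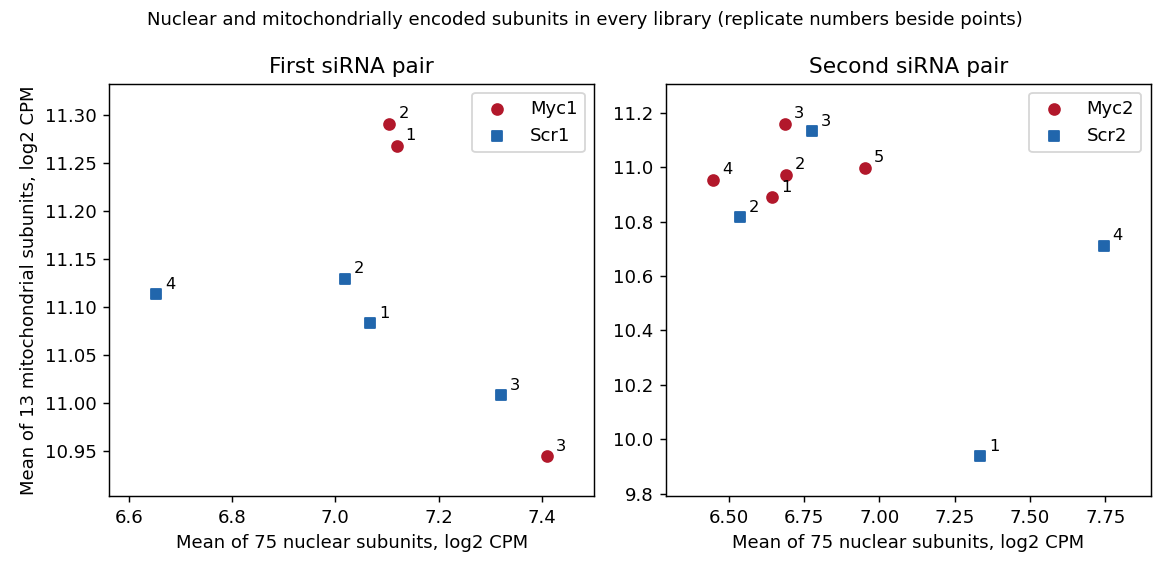
Mean log2 CPM of 13 mitochondrially encoded subunits against the mean of 75 nuclear subunits in every library, with replicate numbers beside the points, for the first pair (left) and the second (right). Scr2 replicates 1 and 4 lie at 9.94 and 10.71 on the mitochondrial axis and at 7.34 and 7.75 on the nuclear axis.

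Proteins that build or serve the chain were counted in the same way, and 0 of them passed the adjusted threshold in limma. Of complex I assembly factors 11 of 16 were above 0 with siRNA 1 and 14 of 16 below 0 with siRNA 2 (medians 0.20 and -0.34), and of complex IV assembly factors 21 of 25 and 23 of 25 (0.23 and -0.41). Of the assembly factors of complexes II, III and V, 2 of 2, 4 of 5 and 3 of 4 were above 0 with siRNA 1, and 2 of 2, 3 of 5 and 4 of 4 below 0 with siRNA 2. A list of complex V proteins outside the naming rule, which also holds the ATPase inhibitor ATPIF1 and the coupling factor ATP5S, had 6 of 6 above 0 with siRNA 1 (median 0.28) and 6 of 6 below 0 with siRNA 2 (median -0.61). USMG5, a small membrane subunit, had a difference of 0.77 ± 0.34 (SE) in the first pair, and ATP5L -0.72 ± 0.27 (SE) in the second. Electron carriers and shuttles had 11 of 16 above 0 with siRNA 1 and 15 of 16 below 0 with siRNA 2. COQ3, an enzyme of ubiquinone synthesis, was at -0.90 ± 0.27 (SE) with siRNA 2.

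Ribosomal proteins, whose coding lengths were not examined here, lay on the same sides of 0 as most subunits. Cytosolic ones were above 0 for 77 of 83 with siRNA 1 (median 0.22) and below 0 for 82 of 83 with siRNA 2 (median -0.40). Mitochondrial ones were above 0 for 67 of 77 and below 0 for 73 of 77 (medians 0.19 and -0.43). Tricarboxylic acid cycle enzymes had 7 of 16 above 0 with siRNA 1 (median -0.024) and 13 of 16 below 0 with siRNA 2 (median -0.26). Regulators of respiratory genes had 10 of 18 above 0 with siRNA 1 and 9 of 18 with siRNA 2 (medians 0.012 and 0.021). Among them PPARGC1A, a coactivator of mitochondrial genes, was at 1.27 ± 0.53 (SE) with siRNA 1, and NRF1 at -0.77 ± 0.23 (SE) with siRNA 2. The groups overlapped for both, and neither passed the adjusted threshold (limma, adjusted p = 0.996 and 0.37). PPARGC1A was low, between -0.45 and 2.12 log2 CPM in the first pair. Hypoxia-inducible targets had 11 of 14 above 0 with siRNA 1 (median 0.23) and 14 of 14 with siRNA 2 (median 0.97, 8 of 14 higher at an unadjusted p under 0.05, against 7.0% of all genes). VEGFA, a vascular growth factor, was at 2.80 ± 0.61 (SE, limma, adjusted p = 0.37) with siRNA 2.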

How the data were processed

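RNA from 16 xenografts was sequenced, with RNA integrity numbers of at least 7.2, per the labels' protocols. STAR 2.6.0b, bcl2fastq 2.20.0 and Picard are named in the submitters' processing notes, beside hg19 and mm10, without their roles. How reads were counted and mouse reads set aside is not given in the sources used here. For each siRNA pair the authors deposited a table of log2 CPM per human gene. The unit was read from the values, which are quantile-normalised per table, and no level was compared across tables. Depth is unknown.

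Differences were fitted with limma 3.58.1 in R 4.3.3 (trend, robust), taking the log2 values as deposited, across all genes with at least 1 CPM in 3 libraries (siRNA 1 and the joint fit) or 4 (siRNA 2), with Benjamini-Hochberg adjustment over all of them. The script was tested on simulated data. MYC was also compared by an exact permutation test (35 and 126 arrangements, smallest p 0.0286 and 0.00794). The rule for members read symbols only, but it and the gene lists were chosen with earlier results of these data known. Named members were the 2 with the smallest p in each complex and pair, the 3 with the highest mean in each table, paired isoforms, all SDH subunits and the largest and smallest SD, and the member of each list with the smallest p (not all of these are printed). Coding and transcript lengths came from GENCODE v29 principal transcripts. Alternatives were the pseudocounts 0.1 and 1, no filter, 5 CPM, no trend or robust setting, array weights, median centring, libraries left out and, added after the data were seen, both length and GC adjustments. P-values measure the spread between mice of 1 experiment.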

Additional observations from a re-analysis of the deposited data

Results flagged for a closer look

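In 96 groups of 4 or 5 libraries, each tested for 1 value far from the rest by Dixon's criterion, 3 stood apart; chance alone marks about 1 in 20 groups. ATP5E was 8.39 log2 CPM in Scr1 replicate 4, and its nearest neighbour among the other Scr1 libraries was 9.24. COX7C was 6.74 in the same library, with the nearest other value at 7.86. COX6B2 was -2.54 in Scr1 replicate 3, which is the lowest value of that library, with the nearest other value at -0.96. Scr1 replicate 4 was also the lowest library for 50 of 75 subunits.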

How the results depend on the processing

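The count of subunits past the adjusted threshold was 0 for both pairs and for their difference under every alternative run. With 1 library left out the median subunit difference ran from 0.0853 to 0.30 (siRNA 1), -0.64 to -0.22 (siRNA 2) and 0.40 to 0.87 (difference of effects), with counts past the adjusted threshold from 0 to 0. Subunits at an unadjusted p under 0.05 and lower with siRNA 2 numbered 12 (6.36% of all genes), but 1 when Scr2 replicate 4 was left out (1.97%) and 49 when Scr2 replicate 2 was (2023 of 14422 genes), and 2 to 25 without each of the other 7 libraries. Under array weights there were 3 (3.15%), without the trend and robust settings 7 (6.01%), without Scr2 replicates 1 and 4 there were 0 (1.47%), and after adjustment for coding and transcript length 11 (8.17%) and 15 (8.35%). Subunits higher with siRNA 1 numbered 0 or 1 with 1 library left out, except 10 without Scr1 replicate 3. Array weights gave medians of 0.159 and -0.208, and leaving out Scr1 replicates 3 and 4 gave 0.176. For the difference of effects, 21 higher subunits (4.16% of all genes) became 2 under array weights (1.75%), 6 (3.12%) and 8 (3.45%) after adjustment for coding and transcript length, and 2 when Myc1 replicate 3, Scr1 replicate 4, Scr2 replicate 1 or Scr2 replicate 4 was left out (1.44% to 2.21%). Leaving out Scr2 replicate 2 gave 48 (10.3%), and each other library 6 to 31. The share of all genes also moved with the library left out, so counts given here without it do not describe the subunits alone. Signs of named members, none of them past the threshold, turned as follows, and the cause was not tested. After adjustment for coding length and GC they were COX4I1 -0.0132, COX6B1 -0.14, COX8A -0.12, COX7B -0.0714 and ATP5G1 -0.12 with siRNA 1, and COX7A2L 0.0494, ATP5G3 0.0895, SDHA -0.000237, SDHD 0.0984 and NDUFA10 0.0728 with siRNA 2. After adjustment for transcript length and GC they were COX4I1 -0.0576, COX6B1 -0.14, COX7A2 -0.00896, COX8A -0.17 and ATP5G1 -0.17 with siRNA 1, and SDHB 0.0304, COX4I1 0.0177, COX6A1 0.14, ATP5G3 0.16 and SDHD 0.19 with siRNA 2. Array weights gave COX6B1 -0.0223 and COX8A -0.0182 with siRNA 1. Without Scr2 replicates 1 and 4, siRNA 2 gave SDHB 0.0205, UQCRH 0.0159, COX4I1 0.0981, COX6A1 0.13, COX7A2L 0.0565, ATP5G3 0.0201, SDHD 0.0868 and UQCR11 0.0466. With 1 library left out, the range was ATP5G1 -0.0793 to 0.15, COX6B1 -0.16 to 0.16, COX7B -0.099 to 0.38 and COX8A -0.12 to 0.12 with siRNA 1 and NDUFA10 -0.0683 to 0.0195 with siRNA 2. The MYC difference of the second pair ran from 0.41 to 0.70 with 1 library left out, with exact permutation p above 0.05 in 8 of 9 cases, and that of the first pair from -1.17 to -0.39. Where a group of the fit fell to 2 libraries, the spread was pooled over groups. No paired analysis was possible because the labels carry no replicate numbers and numbers given in accession order pair nothing. Depth is unknown, so precision at low levels (COX6B2, NDUFA4L2) cannot be given.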

Other observations

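The rows under the naming rule that are not subunits gave no adjusted call. NDUFA6-AS1 differed by 0.57 ± 0.34 (SE) with siRNA 1 and -0.19 ± 0.25 (SE) with siRNA 2, and NDUFB2-AS1 by -0.014 ± 0.46 (SE) and -0.34 ± 0.40 (SE). The readthrough gene ATP5J2-PTCD1 differed by -0.17 ± 0.36 (SE) and -0.30 ± 0.28 (SE), and NDUFC2-KCTD14 was below the filter in both pairs. The second identifier of NDUFB8 differed by -0.88 ± 1.55 (SE) and 0.78 ± 0.84 (SE), and that of NDUFA7 was below the filter.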
